A study of Mus musculus with 4 samples.

Results

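The restriction fragments of chromosome 3 that lie beyond the neighbourhood of *Lef1* but still within a few megabases of it were examined by 4C-seq in the whisker pad and the kidney of the mouse. A fragment was included when its midpoint lay more than 1 Mb and at most 5 Mb from position 131108763 of mm10 (GRCm38), the middle of the *Lef1* promoter viewpoint. This gave 7626 of the 2350945 fragments of the series and of the 137330 fragments of chromosome 3. Of these, 4028 lay on the centromeric side, at lower coordinates, and 3598 on the telomeric side. The whisker pad libraries came from E12.5 embryos of the OF1 strain and the methods give 120 pooled pads, collected at E12.5 and E13, whereas the labels name E12.5 alone. The kidney libraries came from adult OF1 mice, and the study used this organ as a negative control because it has little *Lef1* expression. Neither tissue carried a mutation or received a treatment. Each tissue was probed once from the *Lef1* promoter and once from Leaf, a putative enhancer 89.2 kb centromeric to it (distance between the middles of the excluded viewpoint regions). With 1 library for each tissue and viewpoint, differences between tissues could not be checked in replicates, and tissue and developmental stage cannot be told apart. The data hold contacts and no expression, so the tissue labels were not checked against marker genes.

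In 4C-seq, crosslinked chromatin is cut, joined by ligation and cut again, and the fragments joined to a chosen viewpoint are amplified and sequenced. Contacts of a viewpoint are densest within its own topologically associating domain and become rarer with genomic distance. Farther along the same chromosome they also follow the compartments, in which stretches of active, gene-rich chromatin meet one another more often than they meet silent stretches. *Lef1* encodes a transcription factor that acts with beta-catenin in the Wnt pathway and is needed for the growth of whiskers, hair and teeth. On its centromeric side lie *Sec24b*, *Egf* and *Elovl6*, then a wide desert without coding genes, and then *Neurog2* and *Ank2*. On its telomeric side lie the Wnt antagonist gene *Dkk2*, then *Npnt*, *Tet2*, *Cxxc4* and *Tacr3*, and finally *Nfkb1*.

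A fragment of this assay is the stretch between neighbouring sites of NlaIII, the first cutter, and it can be amplified when DpnII, the second cutter, also cuts in it. All 7626 fragments had an NlaIII site at both ends in the reference, and 7493 (98.3%) held a DpnII site wholly inside. The remaining 133 fragments had none wholly inside, and whether a DpnII site overlapped their edges was not tested. The median fragment had 321 bases (interquartile range 190 to 518) and a GC content of 40.4%. The sequences below, read from the plus strand of GRCm38, are the fragment found in all 4 libraries and the highest-scoring fragment of each library. NlaIII and DpnII sites are in capitals. The fragments are shown by their first 200 bases, with the NlaIII site, except that of the whisker pad Leaf library, which is shown whole with its 153 bases. None of the printed bases overlapped an annotated exon.
Fragment in all 4 libraries, chr3:130081484-130081683: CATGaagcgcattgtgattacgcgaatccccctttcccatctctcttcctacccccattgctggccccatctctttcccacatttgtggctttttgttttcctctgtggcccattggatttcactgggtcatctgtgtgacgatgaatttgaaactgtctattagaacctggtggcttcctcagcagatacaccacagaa
Highest in whisker pad from the Lef1 promoter, in Sec24b, chr3:130059382-130059581: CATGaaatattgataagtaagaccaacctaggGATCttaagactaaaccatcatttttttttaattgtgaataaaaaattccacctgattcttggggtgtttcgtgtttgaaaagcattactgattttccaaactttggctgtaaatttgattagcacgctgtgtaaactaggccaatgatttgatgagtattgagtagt
Highest in kidney from the Lef1 promoter, in Gar1, chr3:129829795-129829994: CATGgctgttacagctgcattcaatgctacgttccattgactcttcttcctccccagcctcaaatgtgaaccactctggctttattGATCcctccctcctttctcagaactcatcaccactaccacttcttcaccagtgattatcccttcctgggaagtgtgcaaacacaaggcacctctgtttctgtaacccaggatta
Highest in whisker pad from Leaf, intergenic, chr3:128974384-128974536: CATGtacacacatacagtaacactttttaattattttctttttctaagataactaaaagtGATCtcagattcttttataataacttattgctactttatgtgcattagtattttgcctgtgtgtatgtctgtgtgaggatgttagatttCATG
Highest in kidney from Leaf, intergenic, chr3:128844088-128844287: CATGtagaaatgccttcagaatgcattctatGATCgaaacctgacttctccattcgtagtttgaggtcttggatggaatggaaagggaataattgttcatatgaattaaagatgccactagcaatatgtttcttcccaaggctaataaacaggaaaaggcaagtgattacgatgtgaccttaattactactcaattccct

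The fragment found in all 4 libraries lay 1027 kb from the viewpoint in the intergenic stretch beside *Sec24b*, which encodes a coat protein of transport vesicles. From the *Lef1* promoter it scored 92.18 in whisker pad and 13.56 in kidney, and 40.42 and 45.68 from Leaf. The highest fragments of the single libraries were not shared in the same way. The *Sec24b* fragment scored 395.3 in whisker pad from the promoter and 0 in kidney. The *Gar1* fragment, from a gene for a protein of small nucleolar ribonucleoproteins, scored 208 in kidney from the promoter and 0 in whisker pad. The highest fragments of the Leaf libraries, with 477.3 in whisker pad and 606.1 in kidney, were at 0 in both promoter libraries.

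From the *Lef1* promoter, fragments 1 to 5 Mb away were found more often in the whisker pad than in the kidney, and the same held from Leaf. A fragment was called detected when its raw score was above 0, and the detection share is the percent of fragments detected. In whisker pad the promoter detected 1085 of 7626 fragments, or 14.2% (95% Wilson interval 13.5 to 15.0). In kidney it detected 348, or 4.56% (4.12 to 5.06). Leaf detected 375 in whisker pad, or 4.92% (4.45 to 5.43), and 114 in kidney, or 1.49% (1.25 to 1.79). The order of the 4 libraries was therefore the whisker pad promoter library first, then the whisker pad Leaf and kidney promoter libraries, whose intervals overlapped, and the kidney Leaf library last. These intervals treat fragments as separate draws, so they cover the counting of fragments and leave out variation between animals. In the whisker pad promoter library, 44.3% of detected fragments had a detected neighbour, against 21.9% of undetected ones. Where neighbours are detected together, the intervals here and below may be too narrow even within 1 library. Read depth is unknown, because the deposited scores are not whole reads.

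The libraries differed in the number of detected fragments and in the share of their score on chromosome 3. Raw scores summed over the genome to between 787783 and 854206. Fragments detected genome-wide numbered 27695 in whisker pad and 29542 in kidney from the promoter, and 12814 and 13002 from Leaf. The score on chromosome 3 was 38% and 13.9% of the total from the promoter in the respective tissues, and 27.5% and 12.2% from Leaf. On the other chromosomes, detection was lower in whisker pad than in kidney, by a ratio of 0.828 (0.814 to 0.843) from the promoter and 0.892 (0.869 to 0.915) from Leaf. Farther than 5 Mb on chromosome 3 it was higher in whisker pad, by 1.62 (1.54 to 1.71) and 1.40 (1.29 to 1.53). Between 1 and 5 Mb the ratio was 3.12 (2.77 to 3.50) and 3.29 (2.67 to 4.05), outside those intervals, and within 1 Mb it was 2.04 (1.89 to 2.21) and 2.69 (2.38 to 3.05).

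Each library could be set against its own far background. In whisker pad, the detection share at 1 to 5 Mb was 5.18 times (4.85 to 5.52) that farther than 5 Mb from the promoter, and 5.02 times (4.48 to 5.62) from Leaf. In kidney the ratio was 2.69 (2.41 to 3.0) from the promoter and 2.14 (1.76 to 2.59) from Leaf. The kidney intervals lay under both whisker pad intervals. The promoter detected 2.89 times (2.58 to 3.24) as many of the fragments as Leaf in whisker pad and 3.05 times (2.48 to 3.76) as many in kidney. Farther than 5 Mb these ratios were 2.81 and 2.43. Divided by them, the viewpoints differed by 1.03 in whisker pad and by 1.26 in kidney.

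**Figure D1:**
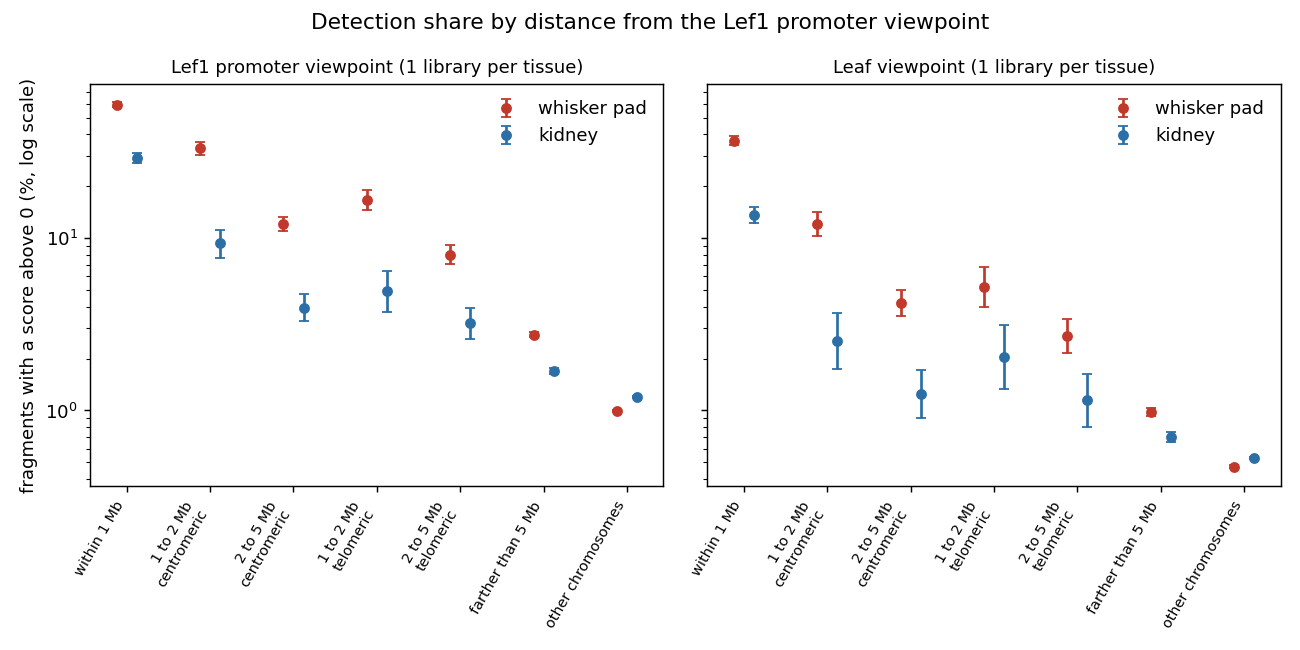
Percent of fragments with a raw score above 0 (log axis) by distance class on chromosome 3 and on the other chromosomes, for the Lef1 promoter (left) and Leaf (right); points are single libraries and bars are 95% Wilson intervals over fragments. In every distance class of chromosome 3 the whisker pad point lies above the kidney point, and on the other chromosomes it lies under it.

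The centromeric side was contacted more than the telomeric side. From the promoter, whisker pad detected 712 centromeric fragments, or 17.7% (16.5 to 18.9), and 373 telomeric ones, or 10.4% (9.41 to 11.4). Kidney detected 216, or 5.36% (4.71 to 6.10), and 132, or 3.67% (3.10 to 4.33). From Leaf, whisker pad detected 253, or 6.28% (5.57 to 7.07), and 122, or 3.39% (2.85 to 4.03), on the respective sides. Kidney detected 64, or 1.59% (1.25 to 2.02), and 50, or 1.39% (1.06 to 1.83). The telomeric share was 0.586 (0.522 to 0.659) of the centromeric share in whisker pad and 0.684 (0.554 to 0.846) in kidney from the promoter. From Leaf it was 0.540 (0.437 to 0.667) in whisker pad and 0.875 (0.606 to 1.26) in kidney, where the sides could not be told apart.

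The difference between tissues was present on both sides. Whisker pad exceeded kidney 3.30-fold (2.85 to 3.81) on the centromeric and 2.83-fold (2.33 to 3.43) on the telomeric side from the promoter. From Leaf the ratio was 3.95 (3.02 to 5.18) and 2.44 (1.76 to 3.38). When each share was divided by the share of its library farther than 5 Mb, the ratios became 2.04 and 1.75 from the promoter and 2.82 and 1.74 from Leaf. All 4 stayed above 1, and whether the sides differed in this ratio was not tested.

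Detection fell with distance, and between its first and last megabase the fall was steeper on the centromeric side, with separate intervals in 3 of the 4 libraries. Those of kidney from the promoter overlapped when a score of at least 1 counted as detected. In whisker pad, the promoter detected 33.3% of centromeric fragments at 1 to 2 Mb, 12.3% at 2 to 3 Mb, 15.7% at 3 to 4 Mb and 7.92% at 4 to 5 Mb. On the telomeric side the shares were 16.7%, 7.48%, 7.27% and 9.09%. Both sides had their largest step at 2 Mb, and the later stretches did not form a steady decline. In kidney, the promoter detected 9.31%, 4.24%, 5.02% and 2.50% on the centromeric side, and 4.91%, 2.82%, 3.52% and 3.27% on the telomeric side. Leaf in whisker pad detected 12%, 5.35%, 5.41% and 1.77% on the centromeric side, and 5.21%, 3.43%, 2.30% and 2.45% on the telomeric side. Leaf in kidney detected between 0.735% and 2.54% in every such stretch.

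Set as a ratio, detection at 1 to 2 Mb over that at 4 to 5 Mb was 4.20 (3.33 to 5.30) in whisker pad and 3.72 (2.40 to 5.76) in kidney for the centromeric side from the promoter. For the telomeric side it was 1.83 (1.44 to 2.34) and 1.5 (0.969 to 2.33), the kidney interval reaching 1. From Leaf the centromeric ratio was 6.79 (4.13 to 11.2) in whisker pad and 2.03 (1.03 to 3.98) in kidney. The telomeric ratio was 2.13 (1.32 to 3.43) and 2.0 (0.942 to 4.25).

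Steps of 250 kb were counted outward from the viewpoint, with 16 bins on each side. The centromeric profile of the whisker pad promoter library was highest at 1 to 2 Mb, then dropped and later rose. The 4 centromeric bins from 1 to 2 Mb, where genes such as *Sec24b*, *Mcub*, *Egf*, *Elovl6* and *Enpep* lie, had detection shares of 41.5%, 34.0%, 27.7% and 30.8%. The next bin, at 2.0 to 2.25 Mb and without coding genes, had 14.2% (35 of 246 fragments), and that at 2.25 to 2.5 Mb had 7.31%. The share then rose through 16.5% at 2.75 to 3.0 Mb and 18.8% at 3.0 to 3.25 Mb to 23.2% (58 of 250) at 3.25 to 3.5 Mb. This last bin holds *Neurog2*, a proneural transcription factor gene, with *Zgrf1*, *Alpk1*, *Tifa* and *Ap1ar*. It was followed by 9.60% in the bin of *Larp7*. The lowest centromeric bin, at 4.75 to 5.0 Mb and again without coding genes, had 2.23%.

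On the telomeric side the same library had 17.5% at 1.0 to 1.25 Mb, the bin of *Dkk2*, and 16.4% (46 of 280) at 1.75 to 2.0 Mb, the bin of *Npnt*, *Gstcd* and *Ints12*. It dropped to 4.50% (9 of 200) at 2.0 to 2.25 Mb, the bin of *Arhgef38*. The lowest shares, 3.23% and 2.99%, fell in the bins from 3.5 to 4.0 Mb that hold *Tacr3*, a neurokinin receptor gene. The share was back at 12.4% at 4.25 to 4.5 Mb, the bin of *Ube2d3* and *Manba*.

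At the edges of the range, the intervals of the 250 kb bins just inside and just outside overlapped except in 1 case. For the whisker pad promoter library, the last bin inside 1 Mb had 44.1% on the centromeric and 26.9% on the telomeric side, and the first bin beyond it 41.5% and 17.5%. In kidney from the promoter the telomeric share went from 11.8% (8.37 to 16.5) inside 1 Mb to 2.92% (1.42 to 5.90) beyond it. At 5 Mb the shares of the whisker pad promoter library were 2.23% and 6.51% just inside, and 4.60% and 3.77% in the next 250 kb.

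**Figure D2:**
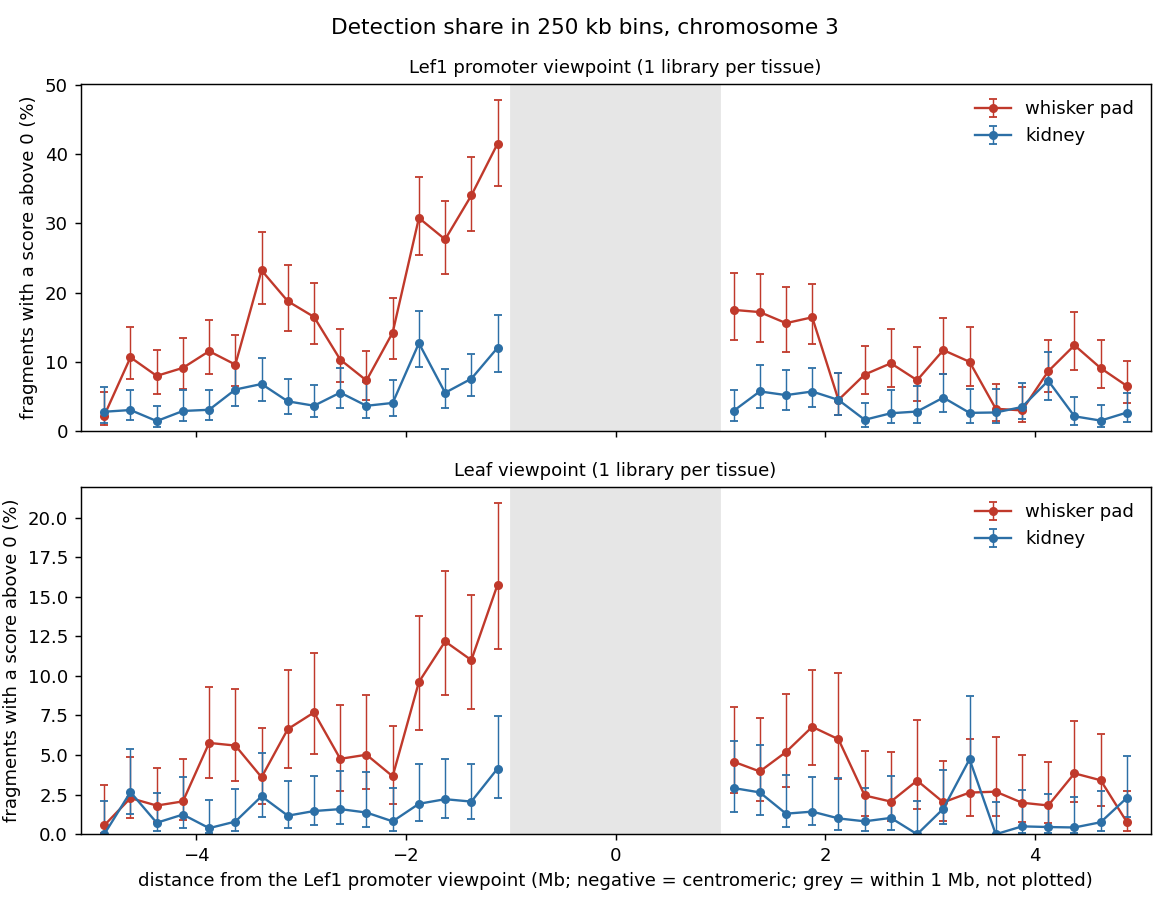
Percent of fragments with a raw score above 0 in bins of 250 kb against the signed distance from the Lef1 promoter viewpoint, for both viewpoints; points are bins of single libraries and bars are 95% Wilson intervals. Whisker pad from the promoter reaches 41.5% in the nearest centromeric bin, falls to 7.31% and rises again to 23.2% in the bin from 3.25 to 3.5 Mb.

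In kidney the promoter shares were lower than in whisker pad in 15 of 16 centromeric and 14 of 16 telomeric bins. The highest centromeric bin of this kidney library was at 1.75 to 2.0 Mb (12.7%, 33 of 260 fragments). Its highest telomeric bin was at *Cenpe*, *Bdh2*, *Slc9b2* and *Slc9b1* (7.27%, 16 of 220). The lowest was 1.45%. From Leaf, the whisker pad maximum was 15.8% in the nearest centromeric bin and 6.79% on the telomeric side, at *Npnt*. Leaf in kidney ranged from 0% to 4.15% on the centromeric and from 0% to 4.74% on the telomeric side, with 0 detected fragments in 1 centromeric and 2 telomeric bins. A bin of that library without a detected fragment holds at least 177 fragments, and the Wilson interval of the centromeric one still allows 2.10%.

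The shapes of the profiles were alike to different degrees, as a description over 32 bins that share their fragments, base composition and distances. Detection in the whisker pad promoter library correlated with that of whisker pad Leaf at Pearson's r of 0.860 and Spearman's rho of 0.692. Against the kidney promoter library r was 0.770 and rho 0.591. The kidney promoter and kidney Leaf libraries gave 0.381 and 0.384. Mean GC content of the bin correlated with detection in the whisker pad promoter library at 0.664 and 0.538. The values were 0.600 and 0.487 in whisker pad from Leaf, 0.493 and 0.385 in kidney from the promoter, and 0.123 and 0.141 in kidney from Leaf.

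Counted by bin and without scaling to the far background, the higher detection in whisker pad covered most of the range. From the promoter, 24 of 32 bins had at least 2-fold more detected fragments in whisker pad (0.5 fragments added to each count), against 33.2% of the 627 bins of chromosome 3 with at least 50 fragments. None of the 32 had at least 2-fold more in kidney, against 12.1% of all bins. From Leaf, 23 of 32 bins were at least 2-fold higher in whisker pad, against 36.4% of all bins, and 1 was higher in kidney, against 19.0%. That bin, at 4.75 to 5.0 Mb on the telomeric side, held 2 detected fragments in whisker pad and 6 in kidney. Farther than 5 Mb the shares of bins higher in whisker pad were 30.5% from the promoter and 33.7% from Leaf. Detection there was lower, at 2.75% in whisker pad and 1.70% in kidney from the promoter, and 0.980% and 0.699% from Leaf. A 2-fold difference in these background bins, in either direction, therefore rested on fewer detected fragments than in the range. The Wilson intervals of the tissues were apart, with whisker pad higher, in 12 of 16 centromeric and 10 of 16 telomeric bins from the promoter. From Leaf they were apart in 8 of 16 centromeric bins and 1 of 16 telomeric bins. The same held for 8.93% of the 627 bins of chromosome 3 from the promoter and 3.19% from Leaf, and for 4.43% and 0.681% of the 587 bins farther than 5 Mb. Kidney was the higher tissue with separate intervals in 0 bins of the range, and also in 0 of the 627. The 2-fold counts depended on scaling. With each share divided by that of its library farther than 5 Mb, 16 of 32 bins from the promoter were higher in whisker pad (15.9% of all bins). From Leaf 20 of 32 were (29.2%). In kidney 0 were then higher from the promoter (25.8%) and 2 from Leaf (27.3%).

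The share of the chromosome 3 score gave a different picture from the detection share. It sums the raw scores of the fragments and divides by the sum over chromosome 3, so it asks how the chromosome's signal is spread and not how much of it there is. At 1 to 5 Mb it was 10.6% in whisker pad and 8.36% in kidney from the promoter, and 10.6% and 7.56% from Leaf. The centromeric part was 7.50% and 5.57% from the promoter and 7.12% and 4.40% from Leaf. The telomeric part was 3.08% and 2.80% from the promoter, and 3.43% and 3.16% from Leaf. As shares of the whole genome's score, the range took 4.02% in whisker pad and 1.16% in kidney from the promoter, and 2.90% and 0.926% from Leaf.

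By bin, 5 of 32 had at least 2-fold more of the chromosome 3 score in whisker pad from the promoter, near the 15.0% of all bins that did so. In kidney 4 of 32 had at least 2-fold more, against 49.8% of all bins. From Leaf, 14 of 32 bins were at least 2-fold higher in whisker pad (37.0% of all bins) and 5 in kidney (41.0%). The count of 5 depended on the denominator. With the score farther than 1 Mb on chromosome 3 in place of all of it, 19 bins from the promoter were higher in whisker pad (26.6% of all bins) and 1 in kidney (34.8%).

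**Figure D3:**
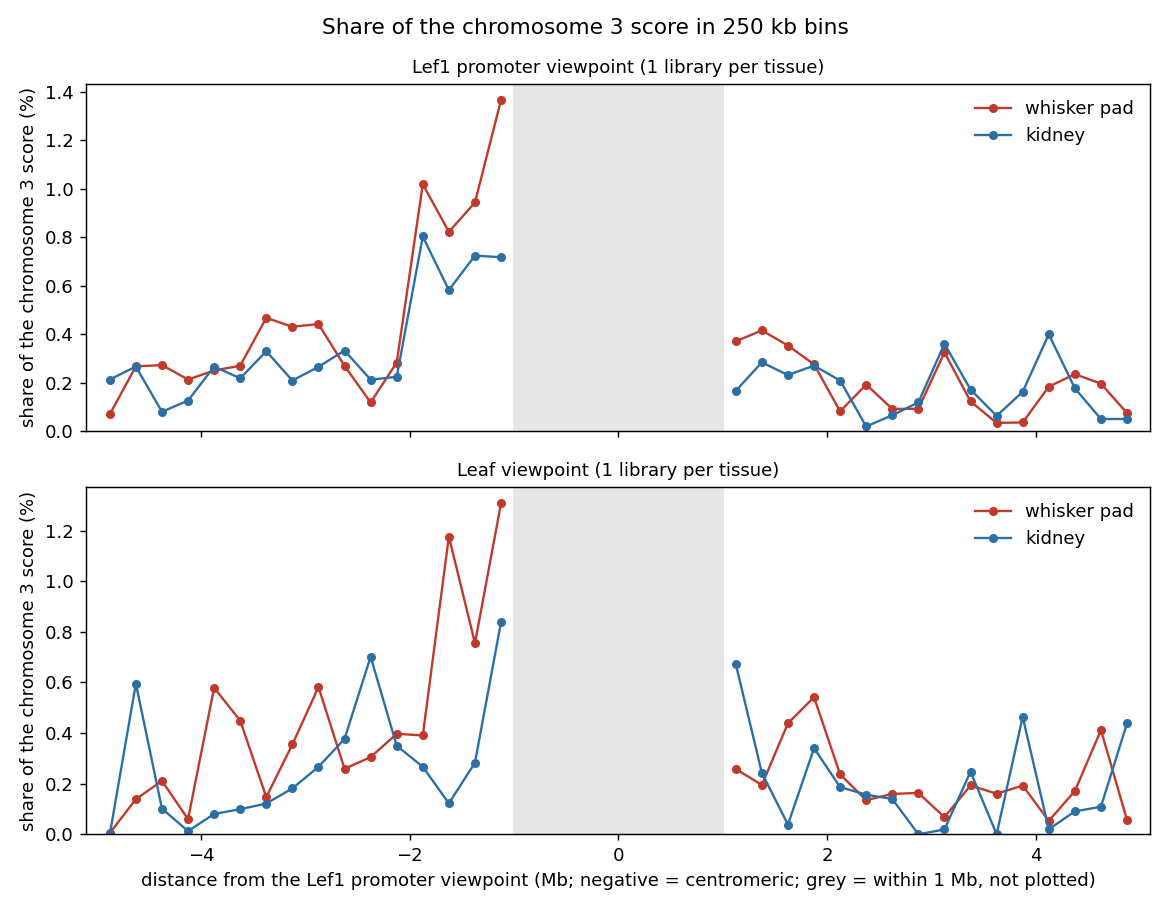
Share of the chromosome 3 raw score (percent) in bins of 250 kb against the signed distance from the Lef1 promoter viewpoint, for both viewpoints and tissues; points are bins of single libraries, with no interval because read depth is unknown. No bin exceeds 1.37%, and the highest whisker pad bins from both viewpoints are on the centromeric side within 2 Mb.

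Few fragments carried much of the score in the sparser libraries. The 10 highest fragments held 6.41% of the range's score in whisker pad and 15.5% in kidney from the promoter, and 14.8% and 43.1% from Leaf. Detected fragments numbered 1085, 348, 375 and 114 in the same order. A fixed 10 is a larger part of the smaller numbers, and the unevenness of the scores apart from this was not tested. The median score of a detected fragment was 19.2 and 18.3 from the promoter, and 40.5 and 28.8 from Leaf. Among detected fragments of the whisker pad promoter library, 44.3% had a detected neighbour on at least 1 side, against 21.9% of undetected ones. The corresponding values were 20.1% and 8.30% in kidney from the promoter, 14.9% and 9.09% in whisker pad from Leaf, and 5.26% and 2.94% in kidney from Leaf.

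Among genes with at least 20 fragments, detection in whisker pad from the promoter was highest over the centromeric genes nearest to *Lef1*. Of the 43 protein-coding genes of the range reported here, 38 had a higher detection share in whisker pad than in kidney from the promoter. The exceptions were *Larp7*, *Gimd1*, *Arhgef38* and *Cenpe*, which were higher in kidney, and *Ints12*, which was equal. From Leaf 31 were higher in whisker pad and 2, *Ap1ar* and *Casp6*, in kidney. These counts are 88.4% of the genes from the promoter and 72.1% from Leaf, and serve as the background of the gene lists. Over the 36 genes with at least 20 fragments, the median share was 15.3% in whisker pad and 4.76% in kidney from the promoter, and 4.37% and 1.03% from Leaf. For 525 such genes farther than 5 Mb the medians were 2.78% and 1.33% from the promoter, and 0% in both tissues from Leaf. Whisker pad was the higher tissue in 33 of the 36 genes from the promoter and 27 from Leaf, against 53.9% and 31.2% of the 525.

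Of the patterning and Wnt pathway genes reported here, 4 of 5 lay in the range, *Lef1* itself being too close. All 4 had a higher share in whisker pad from the promoter, with a median of 19.2% against 7.10% in kidney, and from Leaf 2 of 4 did, with medians of 2.73% and 0.986%. *Dkk2*, whose product blocks Wnt receptors and whose start lies inside 1 Mb, had 21 of 99 fragments detected in whisker pad and 3 in kidney from the promoter. From Leaf it had 2 and 1. *Npnt*, a gene for a matrix protein of the developing kidney and skin, had 14 and 4 of 104 from the promoter, and 12 and 1 from Leaf. *Cxxc4*, whose product binds Dishevelled, had 5 and 3 of 29 from the promoter and 1 in either tissue from Leaf. *Neurog2* had only 3 fragments, of which 2 and 1 were detected from the promoter and 0 in both tissues from Leaf.

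Of the kidney and other epithelial genes, 9 of 10 lay in the range. All 9 were detected more in whisker pad than in kidney from the promoter, with medians of 15.6% and 4.81%, a count near the 88.4% of all genes of the range. *Bdh2* and *Slc9b2* differed by 1 fragment between the tissues. *Egf*, which codes for a growth factor made in the distal tubule, had 37 of 104 fragments detected in whisker pad, or 35.6% (27.0 to 45.1), and 5 in kidney, or 4.81% (2.07 to 10.8). *Enpep*, a brush border aminopeptidase gene, had 20 and 6 of 80. *Elovl6*, a fatty acid elongase gene, had 45 and 8 of 135. From Leaf, these 3 genes had 8, 7 and 14 detected fragments in whisker pad and 1, 3 and 1 in kidney. On the telomeric side *Manba*, a lysosomal mannosidase gene, had 12 and 0 of 77 from the promoter, *Bdh2* had 1 and 0 of 32, and *Slc9b2* had 5 and 4 of 38.

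The 15 broadly used genes had medians of 14.9% in whisker pad and 5.76% in kidney from the promoter, and 12 of them were higher in whisker pad. *Sec24b*, the nearest of them, had 37 of 83 fragments detected in whisker pad, or 44.6% (34.4 to 55.3), and 12 in kidney, or 14.5% (8.47 to 23.6). From Leaf it had 13 and 1. *Tet2*, a gene for an enzyme of DNA demethylation, had 9 and 1 of 96 from the promoter. *Nfkb1*, a transcription factor gene 4583 kb away, had 15 and 3 of 133, and the kinetochore motor gene *Cenpe* had 7 and 8 of 59. The 8 neuronal and other genes in the range had medians of 9.10% and 3.50%, the lowest of the 4 lists from the promoter but not in whisker pad from Leaf (4.61%). Among these *Ank2*, a long membrane scaffold gene, had 61 and 20 of 606 fragments detected from the promoter and 29 and 4 from Leaf, and *Camk2d*, a kinase gene, had 23 and 4 of 283. *Tacr3* had 3 and 2 of 88. The lists differ in distance from *Lef1*, in gene length and in number of fragments, and the part of these in the medians was not tested.

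**Figure D4:**
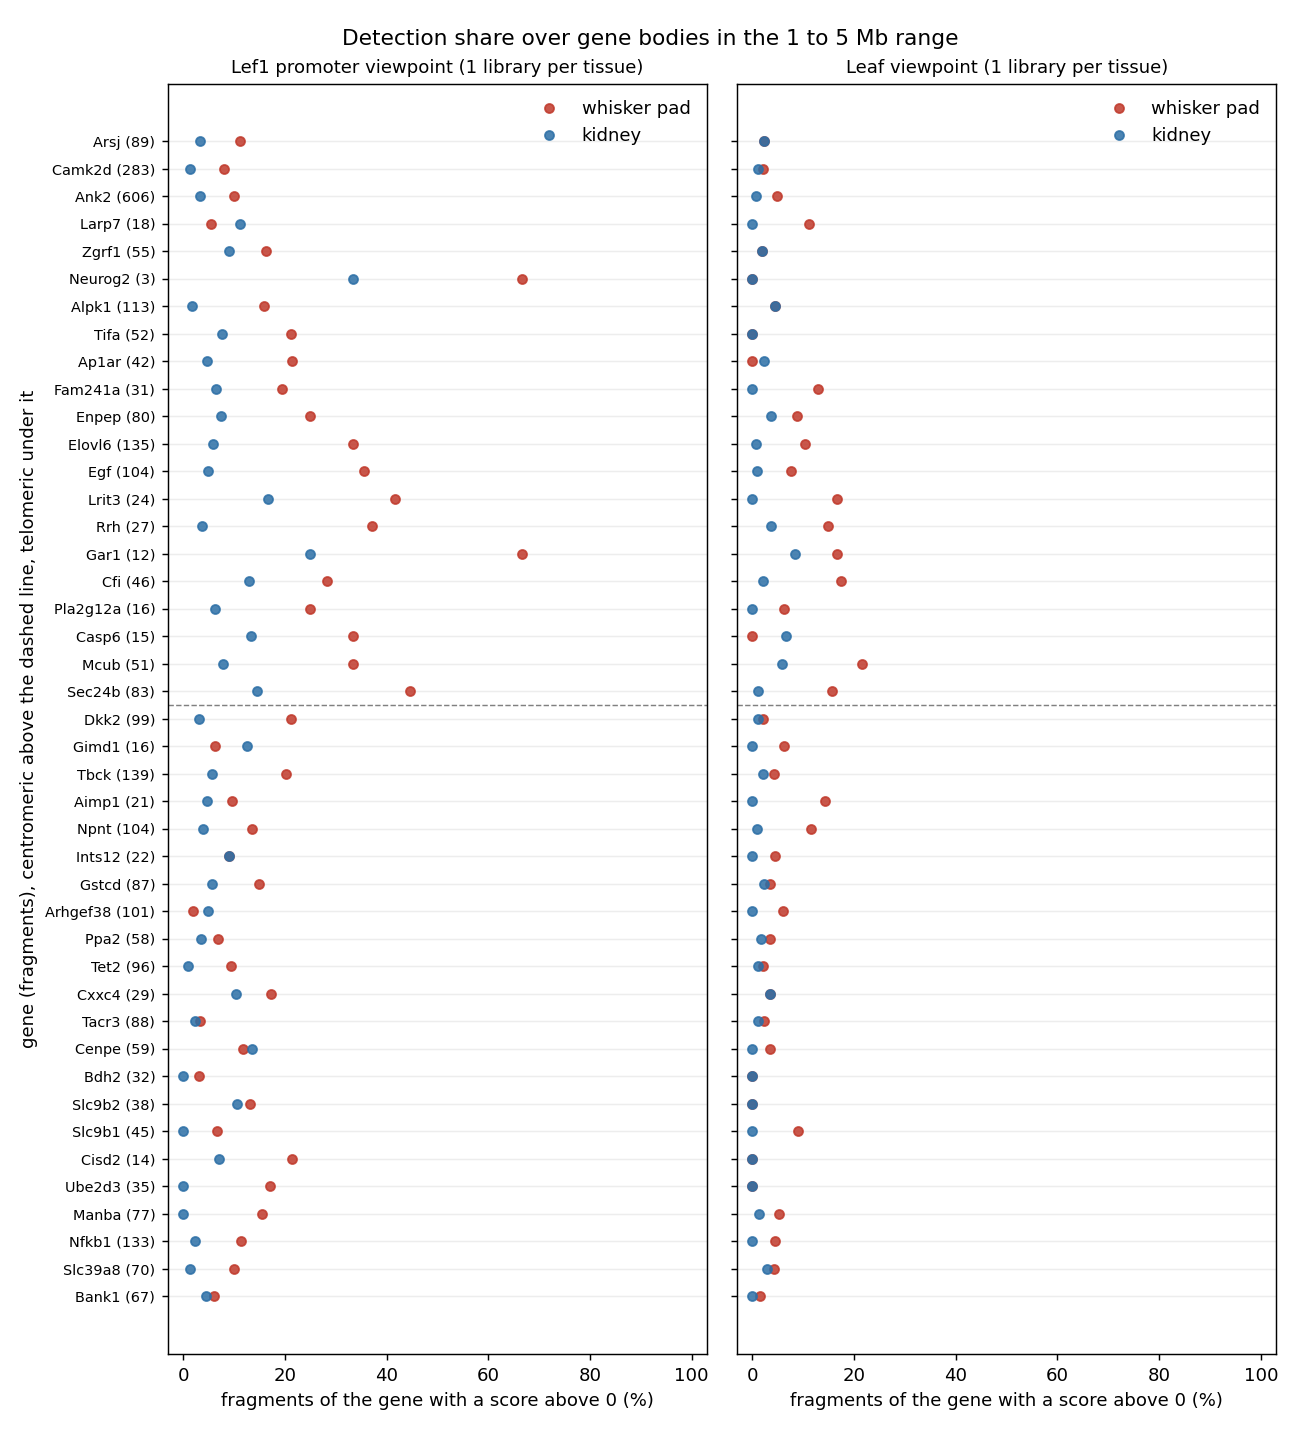
Percent of the fragments of each protein-coding gene with a raw score above 0, for 43 genes with a fragment 1 to 5 Mb from the Lef1 promoter viewpoint, ordered from the centromeric to the telomeric end (number of fragments in parentheses); dots are single libraries. From the promoter, the whisker pad dot lies above the kidney dot for 38 genes, and genes with few fragments, such as Neurog2 with 3, take coarse values.

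Stretches with dense detection, picked after their values were seen, lay mostly on the centromeric side. A run of 25 fragments at *Zgrf1* and *Neurog2* (chr3:127615395-127645594) had 16 detected in whisker pad and 8 in kidney from the promoter, and 1 and 0 from Leaf. Farther than 5 Mb from the viewpoint on the same chromosome, no run of 25 fragments held more than 9 and 5 in the promoter libraries of whisker pad and kidney. Within the gene desert, the body of the long non-coding RNA *D030025E07Rik* (chr3:128117015-128231606) held 119 fragments. Of these 27 (22.7%, 16.1 to 31.0) were detected in whisker pad and 3 (2.52%, 0.861 to 7.15) in kidney from the promoter. From Leaf 13 (10.9%, 6.50 to 17.8) and 1 (0.840%, 0.148 to 4.61) were detected. On the telomeric side, a run of 25 fragments in *Npnt* had 7 detected in whisker pad from Leaf, 3 in whisker pad from the promoter and 0 in kidney from either viewpoint.

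Single fragments were mostly found in 1 library. Of the 7626, 5941 (77.9%) were detected in none and 1685 (22.1%) in at least 1. At least 2 libraries shared 215 fragments and at least 3 shared 21, of which 18 were centromeric and 3 telomeric. Per 10000 fragments, 27.5 were found in at least 3 libraries within the range and 0.470 farther than 5 Mb. Detection in the single libraries was also higher in the range. It was 14.2% and 4.56% from the promoter and 4.92% and 1.49% from Leaf in whisker pad and kidney. Farther than 5 Mb it was 2.75%, 1.70%, 0.980% and 0.699% in the same order. The part of these shares in the difference was not tested. The tissues shared 101 fragments from the promoter, which were 9.31% of those of whisker pad and 29.0% of those of kidney. Of the fragments not detected in whisker pad, 3.78% were detected in kidney. Within whisker pad the viewpoints shared 90 fragments, 8.29% of those of the promoter and 24.0% of those of Leaf, while Leaf detected 4.36% of the fragments that the promoter did not. Within kidney they shared 7, which were 2.01% of the promoter fragments, near the 1.47% of the other fragments that Leaf detected. The Leaf libraries of the tissues shared 8, or 2.13% of those of whisker pad, near the 1.46% of the other fragments.

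Detected fragments also differed from undetected ones in place and make-up. Of the 667 fragments within 5 kb of the start of a coding gene, 27.9% were detected in whisker pad from the promoter, against 12.9% of the others, a ratio of 2.16 (1.88 to 2.47). In kidney the ratio was 1.96 (1.48 to 2.58). From Leaf it was 1.83 (1.39 to 2.41) in whisker pad and 1.34 (0.758 to 2.38) in kidney, the last interval including 1. Fragments near starts were also longer than the others (median 367 against 317 bases) and richer in GC (median 43.0% against 40.2%). The part of length, GC content and distance from the viewpoint in the ratios at starts was not tested. The sides differed in detection near starts. On the centromeric side the promoter detected 35.5% near starts against 15.6% elsewhere in whisker pad, and 11.3% against 4.68% in kidney. On the telomeric side it detected 15.2% against 10.0% in whisker pad, and 3.20% (8 of 250) against 3.70% in kidney. Telomeric values from Leaf were 4.40% against 3.32% in whisker pad and 1.20% against 1.40% in kidney. Over gene bodies, which held 43.2% of the fragments, the ratio was 1.27 (1.14 to 1.42) and 1.17 (0.953 to 1.44) from the promoter, and 1.26 (1.04 to 1.54) and 0.795 (0.546 to 1.16) from Leaf.

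Over the range as a whole, length and base composition moved with detection in all 4 libraries. Fragments were split by length and by GC content into 3 classes of about equal size. The longest class was detected 2.25 times (1.94 to 2.60) as often as the shortest class in whisker pad and 3.87 times (2.84 to 5.27) as often in kidney from the promoter. From Leaf the ratios were 2.23 (1.71 to 2.90) and 2.24 (1.36 to 3.69). The class with the highest GC content exceeded the lowest 1.85-fold and 1.79-fold from the promoter, and 2.12-fold and 1.72-fold from Leaf. In kidney this was not clear on the telomeric side. From the lowest to the highest GC class, detection there was 2.72%, 5.13% and 3.24% from the promoter, and 1.32%, 1.43% and 1.43% from Leaf. Within the longest class alone, the ratio of whisker pad to kidney was 2.86 on the centromeric and 2.28 on the telomeric side from the promoter, and 4.76 and 2.17 from Leaf. The part of length and GC content in the differences between bins and genes was not tested.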

How the data were processed

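Contacts were measured by 4C-seq in 4 libraries, 1 per tissue and viewpoint. According to the methods, reads were processed with the HTSstation pipeline and aligned to mm10 (GRCm38), and the regions next to the viewpoints were excluded. The submitters' processing notes name Bowtie2. The authors deposited a raw signal (score) per NlaIII fragment, used here, and a smoothed signal over 11 fragments, not used here. The raw signal is not in whole reads, so the depth is unknown. Start positions in the deposited table count from 0 and were raised by 1.

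Fragments were assigned by midpoint. Detection is a score above 0. Shares carry 95% Wilson intervals and ratios of shares Katz intervals on the log scale. Bins of 250 kb with at least 50 fragments formed the background, and a 2-fold difference with 0.5 fragments added counted as higher. With 1 library per group no test was made and no p-value is given. The procedure was tested on simulated data with independent fragments and higher detection shares than those of the kidney libraries. That test does not cover bins with few detected fragments or runs of detected neighbours. Genes came from GENCODE M21 and sequences from RefSeq (GRCm38.p6). Genes were named from 4 lists, from the bins with the highest detection share and from the 5 highest fragments of each library. Other genes of the range were named only as exceptions, as neighbours in a bin or after their values were seen, and 1 gene of the lists is not reported here. The members and lists were chosen with earlier results of these data known. Alternatives changed the definition of detection, the fragments, the viewpoint middle, the denominator, the scaling and the bin width. Scripts ran under Python 3.11.15, with pandas 2.3.3 and numpy 2.4.6 for tables, scipy 1.17.1 for intervals and matplotlib 3.10.9 for plots. The number of per-sample columns left without a sample was 0.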

Additional observations from a re-analysis of the deposited data

How the results depend on the processing

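Of 271 values under alternative settings, 194 stayed within the interval, or within 1.5 times, of the reported one, 77 moved beyond it and 0 ratios whose interval left out 1 changed direction. A ratio whose interval included 1, that of fragments with a DpnII site inside over those without in kidney from Leaf, was 0.994 in the range and 2.24 farther than 5 Mb. The cause was not tested, except where the alternative itself sets the size of the value (bin width, denominator, scaling). No paired analysis was possible because each tissue and viewpoint had 1 library. Read depth is unknown, and no setting measures variation between animals.

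When only a score above the median of the other chromosomes counted as detected, the centromeric shares were 11.1%, 2.93%, 3.25% and 0.943% and the telomeric shares 5.67%, 1.81%, 2.03% and 0.695% (whisker pad and kidney from the promoter, then from Leaf). The telomeric over centromeric ratio of the whisker pad promoter library was then 0.511, its ratio to the far background 5.92, and 0 bins were 2-fold higher in kidney from Leaf (21.1% of all bins). The overlaps were 4.61%, 4.15% and 1.08% of the whisker pad promoter fragments (in kidney promoter, whisker pad Leaf and kidney Leaf), 16.4% and 5.46% of the kidney promoter fragments (in whisker pad promoter and whisker pad Leaf), 13.2% and 4.90% of the whisker pad Leaf fragments (in the promoter libraries of whisker pad and kidney), and 11.1% of the kidney Leaf fragments (in whisker pad promoter). With a score of at least 1, the kidney promoter ratios of 1 to 2 Mb over 4 to 5 Mb had overlapping intervals. They were 3.87 (2.42 to 6.17) on the centromeric and 1.61 (1.01 to 2.56) on the telomeric side. The shares of the whisker pad promoter library were then 15.9% and 9.03%.

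With runs of detected neighbours counted once, these shares were 12.8% and 8.56%, their ratio 0.669, the ratio to the far background 4.32, the ratio to Leaf 2.37 and the centromeric ratio to kidney 2.71. With distances from Leaf, the telomeric over centromeric ratio of that library was 0.661, and those of the Leaf libraries were 0.616 in whisker pad and 0.968 in kidney.

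Divided by the share farther than 5 Mb, the ratios of whisker pad to kidney were 2.04 and 1.75 from the promoter and 2.82 and 1.74 from Leaf, those of promoter to Leaf 1.03 and 1.26, and 2 bins were higher in kidney from Leaf (27.3% of all bins). With this scaling, 16 of 32 bins were higher in whisker pad from the promoter and 20 from Leaf (15.9% and 29.2% of all bins). Divided by the share on the other chromosomes, the centromeric ratio of tissues from the promoter was 3.98. In the longest of 3 length classes, an alternative chosen after seeing the data, the telomeric one was 2.28.

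As shares of the chromosome 3 score farther than 1 Mb, the centromeric values were 20.1% and 8.92% from the promoter and 16.2% and 6.63% from Leaf, and the telomeric values 8.24%, 4.48%, 7.82% and 4.77%. With this denominator the promoter had 19 bins higher in whisker pad and 1 higher in kidney (26.6% and 34.8% of all bins), and Leaf 2 higher in kidney (35.4%). As shares of the genome's score, the centromeric values were 2.85%, 0.772%, 1.96% and 0.538%, and the telomeric values 1.17%, 0.388%, 0.944% and 0.388%.

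In bins of 500 kb, 15 and 11 of 16 were higher in whisker pad by detection from the promoter and Leaf, against 33.1% and 30.9% of 314 bins, and 0 in kidney from Leaf (13.4%). By score 2 and 6 were higher in whisker pad (5.73% and 25.8%) and 1 and 2 in kidney (50.3% and 43.3%). In bins of 100 kb, 57 and 52 of 80 were higher in whisker pad by detection, against 37.0% and 33.3% of 1485 bins, and 1 and 2 in kidney (17.2% and 20.1%). At 1.5-fold, 2 bins were higher in kidney from Leaf (27.1% of all bins). With capped scores, the promoter had 8 bins higher in whisker pad and 2 higher in kidney (19.3% and 41.0% of all bins), and Leaf 2 higher in kidney (39.1%).

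For fragments farther than 5 Mb, the ratio at coding starts was 1.20 in kidney from the promoter and 1.22 in whisker pad from Leaf. The GC ratio was 1.51 in whisker pad and 1.02 in kidney from the promoter and 1.21 in whisker pad from Leaf, and the length ratio in kidney from the promoter was 2.26.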
